A study of Rattus norvegicus with 47 samples.

Results

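The data described here are the lung libraries of rats killed 1 day after inhaling silica dust or air, 12 of the 47 libraries of the series. They were chosen by label alone: 6 libraries of silica animals (43 to 48) against 6 of air animals (37 to 42). The rats were males of the inbred strain Fischer 344 and were described as healthy. The silica group inhaled crystalline silica particles (Min-U-Sil 5) by whole-body exposure on 5 days, 6 h each, at 15 mg/m3. The air group had breathed filtered air on the same schedule. The series also holds lung at 6 months and blood at both times, of which only the 11 lung libraries at 6 months are used below. RNA was taken from lung tissue with a stranded polyadenylated RNA kit, so each value is an average over all cell types of the tissue. Fewer cells of a type and less RNA per cell cannot be told apart in it.

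Inhaled crystalline silica settles in the alveoli, where alveolar macrophages take the particles up. Macrophages and epithelial cells then release cytokines and chemokines that draw neutrophils and monocytes into the airspaces. The lung is also a metabolic organ: type 2 cells make surfactant lipid, airway and alveolar epithelium move salt and water, and epithelial and endothelial cells oxidise foreign compounds that arrive by air or blood.

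Of 30045 listed genes, 15331 had adequate counts and 2163 of those (14.1%) differed between silica and air at an adjusted p under 0.05. In silica lung 1286 genes (8.39% of those tested) were higher and 877 (5.72%) were lower. Rises were larger than falls. Among the genes that rose, 204 changed at least 2-fold, against 15 among the genes that fell. The median log2 fold change was 0.37 for the called rises and -0.22 for the called falls, and 412 rises and 64 falls were at least 1.5-fold. Level mattered as well: under 1 CPM (the count scaled to a common library size) 5.26% of genes rose and 1.05% fell, whereas over 100 CPM 9.77% rose and 12.4% fell. Of the 877 falls, 344 were of genes at 25 to 100 CPM and 290 of genes over 100 CPM. With each of the 12 libraries left out in turn, 948 of the rises and 564 of the falls kept their call every time. Groups without overlap were common: they occurred for 747 of the called rises and 406 of the called falls. Over all 15331 genes tested, every silica library lay above every air library for 773 genes and below for 421.

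**Figure D1:**
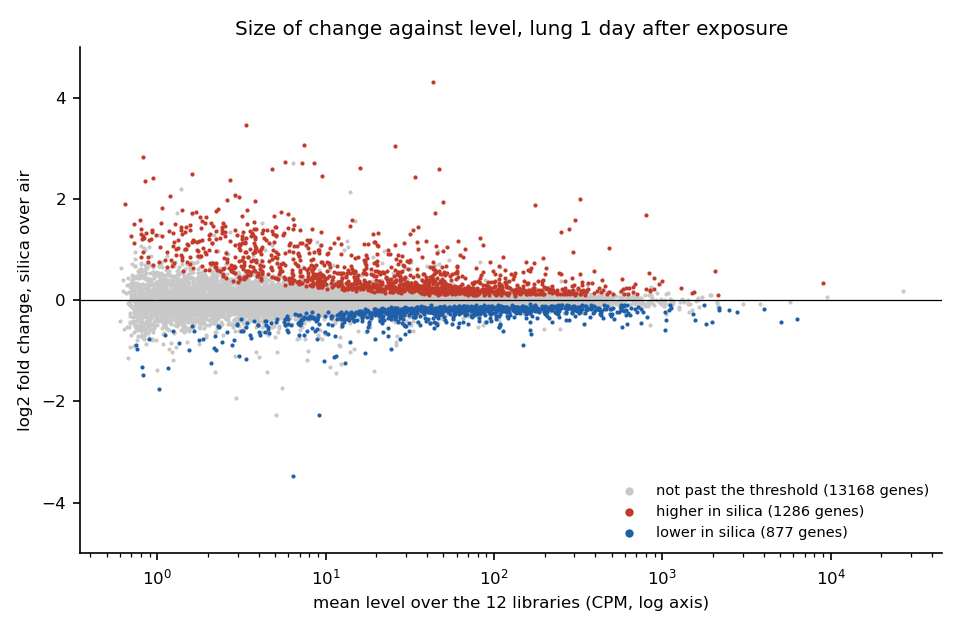
Log2 fold change of silica over air (y) against the mean level over the 12 libraries in CPM (x, log axis), 1 point per gene tested. Red points (1286) were higher and blue points (877) lower at an adjusted p under 0.05, and 3 genes lie outside the drawn range of 5. Large changes are almost all rises of genes at low or middle level, and blue points crowd the abundant end close to 0.

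Totals ran from 12050268 to 25875975 estimated counts in air animals, air 42 standing above the rest, and from 13010433 to 16706362 in silica animals, and the first principal component (20.6% of the variance) placed every silica library on the other side of the air libraries. Summed CPM of marker lists moved with treatment. The neutrophil list (12 genes, of 11 tested 8 rose and 2 fell) summed to 293 to 399 CPM in air and 443 to 808 in silica. The alveolar macrophage list (of 9 tested 5 rose and 3 fell; Marco and Ear1 had at most 3 counts in any library) summed to 682 to 900 and 1055 to 1186 CPM. Sums were lower in silica for alveolar type 1 markers (9147 to 9849 against 8352 to 8662 CPM, 5 of 10 fell), endothelial markers (6558 to 7218 against 5937 to 6579 CPM, 5 of 12 fell) and airway epithelial markers (6474 to 10175 against 5903 to 7344 CPM, 2 of 9 fell). Erythroid and adipose or mesothelial sums were also lower. Each of these 7 sums passed a two-sided exact permutation test of 6 against 6 libraries (adjusted p = 0.00866 each over 16 tests). The alveolar type 2 sum did not pass (46753 to 57236 against 47104 to 62146 CPM, adjusted p = 0.0850 by the same exact test). Treatment and exposure chamber cannot be told apart, since the labels name no chambers, cages or times of killing.

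Neutrophil chemokines were among the 15 largest rises outside placeholder genes. Cxcl6, a ligand of the neutrophil receptor CXCR2, ran from 2.13 to 6.74 CPM (median 4.06) in air and from 52.9 to 122 CPM (median 81.7) in silica (log2 fold change 4.30 ± 0.25, adjusted p = 3.85e-07). Cxcl1, another such ligand, ran from 6.71 to 18.8 CPM (median 14.3) in air and from 56.5 to 141 CPM (median 73.1) in silica (log2 fold change 2.59 ± 0.24, adjusted p = 9.63e-06), and Cxcl2 from 1.30 to 2.98 CPM (median 1.74) in air and from 8.64 to 17.3 CPM (median 12.2) in silica (log2 fold change 2.71 ± 0.22, adjusted p = 2.94e-06). All 6 silica libraries lay above all 6 air libraries for these 3 genes. Ccl20, which attracts dendritic cells and lymphocytes through CCR6, was at the low end of the count range, from 0.584 to 3.30 CPM (median 1.28) in air and from 4.32 to 8.02 CPM (median 5.84) in silica (log2 fold change 1.96 ± 0.35, adjusted p = 0.00179), again without overlap.

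The stretches just upstream of these 4 chemokine genes are shown because the genes rose together and each holds letters of the type that NF-kB proteins bind. They come from RefSeq promoters of the build GRCr8, matched by symbol (the counts were made on Rnor_6.0), and are written 5′ to 3′ on the gene's strand. Capitals mark GGNNTTTCC or GGGNNTTCC on either strand, 2 patterns that can overlap.
Cxcl6 (chr14:17596436-17596564, minus strand): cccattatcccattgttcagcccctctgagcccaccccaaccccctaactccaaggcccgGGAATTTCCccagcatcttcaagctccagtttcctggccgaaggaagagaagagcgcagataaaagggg
Cxcl1 (chr14:17479336-17479464, minus strand): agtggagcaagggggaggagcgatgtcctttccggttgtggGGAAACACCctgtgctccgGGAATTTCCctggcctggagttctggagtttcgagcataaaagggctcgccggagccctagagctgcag
Cxcl2 (chr14:17467256-17467368, minus strand): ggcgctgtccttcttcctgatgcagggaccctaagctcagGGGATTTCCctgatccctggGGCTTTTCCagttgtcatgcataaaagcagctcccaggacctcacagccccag
Ccl20 (chr9:91837010-91837138, plus strand): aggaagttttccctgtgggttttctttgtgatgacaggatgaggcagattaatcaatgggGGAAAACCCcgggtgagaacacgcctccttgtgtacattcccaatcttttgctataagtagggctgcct
The match nearest the start begins 87 bases before it in Cxcl6, 83 in Cxcl1, 53 in Cxcl2 and 89 in Ccl20. These letters are not rare: 9.68% of the 10395 tested genes with a promoter in the table hold them within 250 bases before the start, and 13.9% of the 151 such genes that rose at least 2-fold. Of the other 6 motifs searched, the cell cycle element CHR (TTTGAA) had the widest gap between these gene sets, 10.4% of all and 21.85% of the 151. An AP-1 type (TGANTCA) was in 4.57% and 7.28%, an antioxidant element type (TGACNNNGC) in 12.5% and 13.2%, an ATF4 type (TGATGNAA) in 1.79% and 2.65%, the clock E-box (CACGTG) in 7.78% and 5.30% and a sterol element type (TCACNCCAC) in 0.991% and 0.662%. Symbols matched for 67.8% of the genes tested, so these shares describe the matched genes alone.

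Other large rises named proteins of neutrophil biology, oxidant production and epithelial secretion. Noxo1, the organiser subunit of the NADPH oxidase NOX1, ran from 15.5 to 27.2 CPM (median 19.7) in air and from 60.2 to 91.2 CPM (median 79.9) in silica, a 3.85-fold rise (log2 fold change 1.94 ± 0.12, adjusted p = 3.85e-07). Cd177, a surface glycoprotein of neutrophils, ran from 95.9 to 202 CPM (median 120.4) in air and from 409 to 605 CPM (median 538) in silica (log2 fold change 1.99 ± 0.17, adjusted p = 3.84e-06). The iron-binding secreted protein Lcn2 ran from 3.41 to 6.68 CPM (median 5.95) in air and from 29.1 to 57.7 CPM (median 48.5) in silica (log2 fold change 3.05 ± 0.18, adjusted p = 3.85e-07). None of the 3 overlapped between groups. Il1r2, the decoy receptor for interleukin-1, rose from a median of 2.96 to 17.7 CPM (log2 fold change 2.44 ± 0.26, adjusted p = 2.55e-05). C2cd4b, a nuclear protein gene that inflammatory cytokines induce in endothelium, rose from a median of 2.35 to 14.5 CPM (log2 fold change 2.71 ± 0.23, adjusted p = 4.28e-06). Ly6al, of the Ly6 family, and Saal1 rose by 3.45 ± 0.32 and 3.06 ± 0.24 on the log2 scale, and their reads may be shared with related genes.

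Of the 30 largest changes, 3 need care in reading. Rfxap, a subunit of the factor that switches on MHC class II genes, stands on 2 lines of the table. One line ran from 9.99 to 18.7 CPM (median 14.5) in air and was at 0 in all 6 silica libraries, but with both lines summed the log2 fold change was -0.019 (adjusted p = 0.882). Slc25a22, a mitochondrial glutamate carrier, ran from 0 to 25.6 CPM (median 11.3) in air and from 0 to 2.53 CPM (median 0.760) in silica, and its adjusted p of 0.0435 became 0.181 with DESeq2, 0.602 with limma-voom, 0.0610 with all 4 lung groups in 1 fit and up to 0.0936 with any 1 of 10 libraries left out (air 37, 38, 39 or 41, or a silica library). Lilra3, a leukocyte immunoglobulin-like receptor, was at 0 in 5 of 6 air libraries and ran from 1.59 to 12.97 CPM (median 4.99) in silica.

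**Figure D2:**
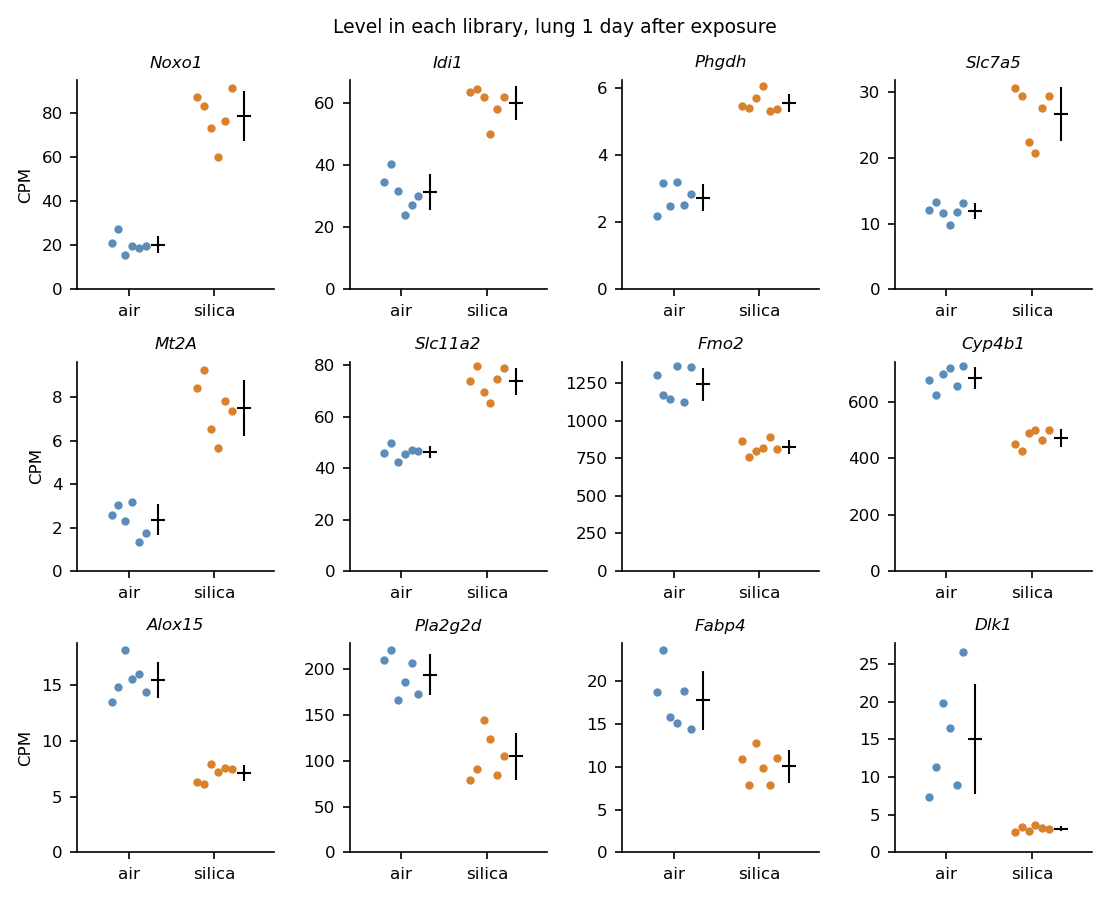
Level in CPM (y, from 0) of 12 genes in each air (blue) and silica (orange) library, with the group mean and SD as a black bar (n = 6 each). In all 12 panels the silica and air points do not overlap, with 6 genes above air and 6 below. The genes were picked for drawing, and groups were also apart for 747 of 1286 called rises and 406 of 877 called falls.

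Many genes of cholesterol synthesis rose. Of 22 tested members 13 rose and none fell, beside 8.39% and 5.72% of all genes, and 12 of the 13 kept the call without any 1 library. The median log2 fold change of the list was 0.43, against -0.0024 over all genes, and all 22 values were above 0. Idi1, which interconverts the isoprene building blocks, ran from 24.0 to 40.3 CPM (median 30.9) in air and from 50.1 to 64.4 CPM (median 62.1) in silica, a 1.91-fold rise (log2 fold change 0.93 ± 0.10, adjusted p = 3.23e-05). Hsd17b7, which also acts in the late sterol steps, ran from 6.05 to 7.70 CPM (median 7.04) in air and from 10.5 to 12.8 CPM (median 11.9) in silica (log2 fold change 0.76 ± 0.084, adjusted p = 3.43e-05). Lss, which closes the sterol ring, ran from 25.4 to 30.5 CPM (median 27.5) in air and from 35.0 to 40.6 CPM (median 38.6) in silica (log2 fold change 0.45 ± 0.055, adjusted p = 7.29e-05). Each silica library was above each air library for all 3.

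Fatty acid genes did not move as a block. In synthesis and storage 3 of 25 rose and 3 fell, beside 8.39% and 5.72% over all genes. The list median was 0.0059, and 1 in each direction kept its call without any 1 library. Dgat2, which makes triglyceride, ran from 36.1 to 42.7 CPM (median 38.1) in air and from 54.4 to 65.9 CPM (median 60.5) in silica (log2 fold change 0.66 ± 0.050, adjusted p = 1.96e-06). Fabp4, the fatty acid carrier of adipocytes, macrophages and capillary endothelium, ran from 14.4 to 23.7 CPM (median 17.3) in air and from 7.88 to 12.8 CPM (median 10.4) in silica (log2 fold change -0.82 ± 0.14, adjusted p = 0.00135). The adipose and mesothelial marker sum, which contains Fabp4, moved with it (401 to 488 CPM in air and 296 to 409 in silica). Of 8 members tested 3 fell, Fabp4 among them, and Ucp1 was at 0 in all libraries. The part of these markers in the result was not tested. Srebf1, the factor that drives fatty acid synthesis, had -0.40 ± 0.11 (adjusted p = 0.0299), with adjusted p from 0.0547 to 0.0643 without air 37 or 38 or silica 44, 46, 47 or 48. Fatty acid synthase itself, Fasn, did not pass (0.26 ± 0.11, adjusted p = 0.128; chosen after its values were seen).

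Glycolysis genes rose in part. Of 24 members 10 rose and none fell by edgeR or DESeq2 (2 lower at an unadjusted p under 0.05), 9 of the rises without any 1 library, and the list median was 0.097. Slc16a3, the lactate exporter MCT4, had the largest change and ran from 11.04 to 14.1 CPM (median 12.7) in air and from 19.4 to 26.6 CPM (median 22.1) in silica, a 1.79-fold rise (log2 fold change 0.84 ± 0.088, adjusted p = 2.30e-05). Hk2, the inducible hexokinase, ran from 14.4 to 19.0 CPM (median 16.7) in air and from 22.0 to 23.8 CPM (median 23.5) in silica (log2 fold change 0.47 ± 0.069, adjusted p = 3.72e-04). Pkm, pyruvate kinase, ran from 324 to 358 CPM (median 331) in air and from 368 to 405 CPM (median 392) in silica, a rise of 16.1% (log2 fold change 0.22 ± 0.033, adjusted p = 4.94e-04). None of the 3 overlapped. The glucose carrier Slc2a1 rose by 0.37 ± 0.060, and the enzyme gene Gapdh, often used as a reference gene, by 0.25 ± 0.039. Both are values on the log2 scale, Gapdh chosen after it was seen.

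No member of the oxidative phosphorylation list (39 tested) passed edgeR's quasi-likelihood test in either direction, nor did any with DESeq2 or limma-voom, and at an unadjusted p under 0.05 edgeR had 2 higher and 1 lower (list median -0.015). In the citric acid cycle list only Pc, the pyruvate carboxylase that refills the cycle, passed among 23 (from 22.0 to 28.1 CPM (median 25.4) in air and from 29.8 to 32.4 CPM (median 32.1) in silica; log2 fold change 0.32 ± 0.056, adjusted p = 0.00125). Of 26 fatty acid oxidation genes 1 rose (3.85%) and 3 fell (11.5%), beside 8.39% and 5.72% over all genes. Hadh, a step of beta oxidation, ran from 68.8 to 73.8 CPM (median 71.9) in air and from 58.5 to 62.4 CPM (median 61.3) in silica, 15.0% lower in silica (log2 fold change -0.24 ± 0.029, adjusted p = 9.39e-05). Ucp3, a mitochondrial carrier linked to fat burning, ran from 3.98 to 5.64 CPM (median 4.89) in air and from 2.88 to 3.51 CPM (median 3.11) in silica (log2 fold change -0.63 ± 0.11, adjusted p = 0.00163). Pdk4, which holds glucose carbon out of the mitochondrion, had -0.76 ± 0.22 (adjusted p = 0.0299), with overlapping groups and adjusted p from 0.0510 to 0.0689 without air 39 or silica 43, 44, 46 or 48, 0.0556 with limma-voom and 0.0672 with all 4 lung groups in 1 fit. In the pentose phosphate list 2 of 7 rose, neither in every fit without 1 library. Tkt was one of them at 0.16 ± 0.043 (adjusted p = 0.0259), with adjusted p from 0.0527 to 0.0668 without air 40, 41 or 42 or silica 43, 44 or 45.

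Some genes that supply one-carbon units, nucleotides and amino acids rose. In the serine and one-carbon list 7 of 19 rose, none fell by edgeR or DESeq2 (1 lower at an unadjusted p under 0.05), and all 7 kept the call without any 1 library (list median 0.21). Phgdh, the first step of serine synthesis, ran from 2.18 to 3.20 CPM (median 2.67) in air and from 5.31 to 6.03 CPM (median 5.43) in silica, a 2.03-fold rise (log2 fold change 1.02 ± 0.11, adjusted p = 2.24e-05). Mthfd2, the mitochondrial folate enzyme of dividing and activated cells, ran from 6.34 to 8.04 CPM (median 6.91) in air and from 12.1 to 14.4 CPM (median 13.5) in silica (log2 fold change 0.91 ± 0.078, adjusted p = 4.62e-06). Shmt2, which makes one-carbon units from serine, rose by less (from 20.9 to 23.6 CPM (median 22.3) in air and from 26.3 to 30.5 CPM (median 28.2) in silica; log2 fold change 0.36 ± 0.045, adjusted p = 9.39e-05). Of 20 purine and pyrimidine synthesis genes 5 rose and none fell, led by Ctps1, the CTP synthase (0.35 ± 0.049 (adjusted p = 3.06e-04)), Atic, the last step of purine synthesis (0.22 ± 0.039 (adjusted p = 0.00156)), and Uck2, a uridine kinase (0.46 ± 0.10 (adjusted p = 0.00822)).

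Of 22 amino acid carriers 10 rose (45.5%) and 2 fell (9.09%), beside 8.39% and 5.72% over all genes (median 0.23). Slc7a5, the light chain of the large neutral amino acid carrier, ran from 9.75 to 13.3 CPM (median 11.9) in air and from 20.8 to 30.6 CPM (median 28.5) in silica (log2 fold change 1.15 ± 0.10, adjusted p = 6.97e-06). Its heavy chain partner Slc3a2, chosen after its value was seen, had -0.055 ± 0.042 (adjusted p = 0.441). Slc7a1, which imports arginine and other cationic amino acids, ran from 11.2 to 15.0 CPM (median 11.8) in air and from 18.2 to 23.6 CPM (median 22.3) in silica (log2 fold change 0.79 ± 0.085, adjusted p = 2.71e-05). Slc7a11, the cystine carrier that feeds glutathione synthesis, ran from 0.908 to 1.56 CPM (median 1.416) in air and from 2.21 to 3.57 CPM (median 2.89) in silica (log2 fold change 1.12 ± 0.16, adjusted p = 3.77e-04). For these 3 carriers the groups did not overlap. On the falling side, Slc7a8, another neutral amino acid light chain, had -0.56 ± 0.10 (adjusted p = 0.00193). The peptide carrier Slc15a2 had -0.51 ± 0.10 (adjusted p = 0.00276). Both fell with some overlap between groups.

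In arginine, polyamine and tryptophan metabolism 5 of 17 rose (29.4%) and 1 fell (5.88%), beside 8.39% and 5.72% over all genes. Gch1, which starts the synthesis of the nitric oxide synthase cofactor, ran from 7.93 to 11.5 CPM (median 9.20) in air and from 13.05 to 15.4 CPM (median 13.6) in silica (log2 fold change 0.55 ± 0.10, adjusted p = 0.00151). Odc1, the first step of polyamine synthesis, rose by 19.9% (log2 fold change 0.26 ± 0.040, adjusted p = 5.32e-04). Ass1, which regenerates arginine, was the fall at -0.29 ± 0.087 (adjusted p = 0.0364), and 8 of 12 fits without 1 library (air 37, 38, 39 or 42, silica 45 to 48) gave adjusted p from 0.0551 to 0.0795.

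**Figure D3:**
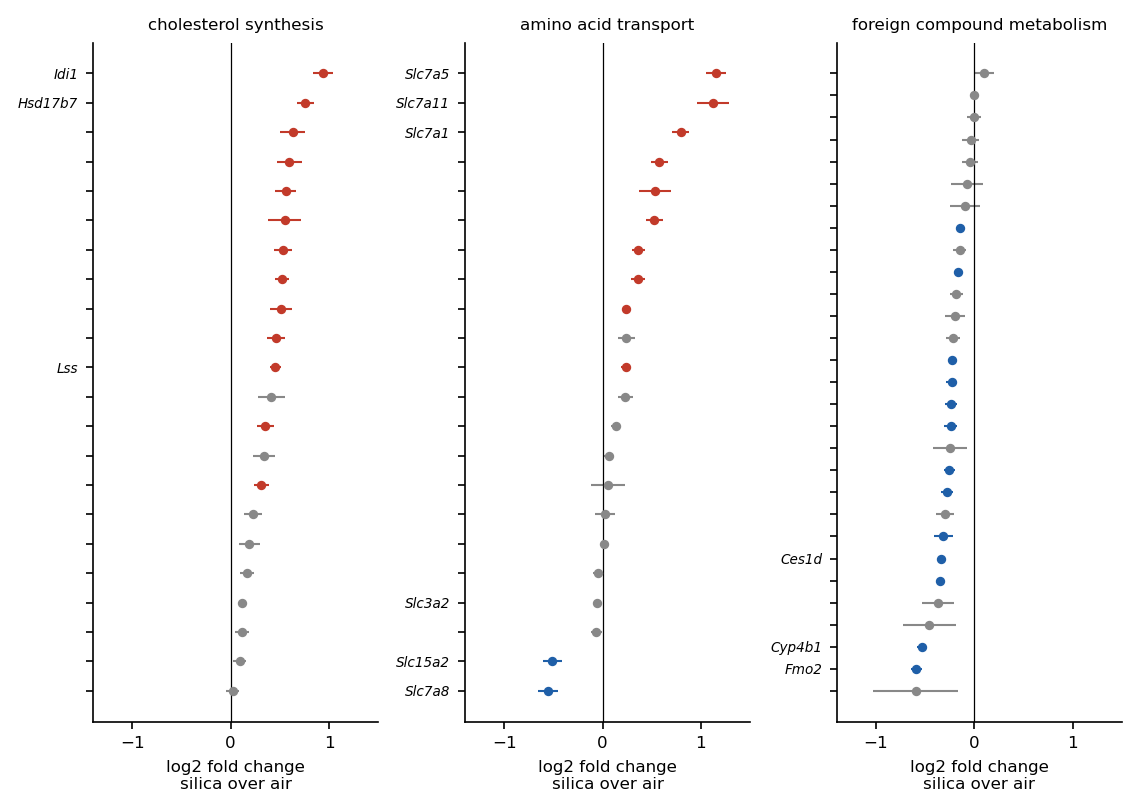
Log2 fold change of silica over air (x) with SE for each tested member of 3 lists (y), ordered by value, with names for the genes described in the text. Red and blue points passed the threshold upward and downward, and grey points did not. Cholesterol synthesis has 13 red and no blue points, amino acid transport 10 red and 2 blue, and foreign compound metabolism no red and 13 blue.

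Many protein-making genes rose by small amounts. In the ribosome biogenesis list 17 of 30 rose and none fell (median 0.16), 13 of them without any 1 library. Among these, Myc, the growth-related factor that drives such genes, ran from 22.7 to 26.01 CPM (median 24.7) in air and from 35.4 to 40.4 CPM (median 36.7) in silica, a 1.52-fold rise without overlap (log2 fold change 0.61 ± 0.048, adjusted p = 2.24e-06). Nop56, of the small nucleolar ribonucleoprotein, had 0.34 ± 0.054 (adjusted p = 7.69e-04) and the helicase gene Ddx21 0.19 ± 0.032 (adjusted p = 9.43e-04). Of 20 aminoacyl-tRNA synthetase genes 9 rose and none fell, and all 20 values were above 0 (median 0.11). Yars, Vars and Eprs, for tyrosine, valine and glutamate with proline, rose by 0.29 ± 0.050, 0.24 ± 0.043 and 0.19 ± 0.028 on the log2 scale.

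The unfolded protein response list had 12 of 20 rises and no fall (median 0.13). Hspa5, the main chaperone of the endoplasmic reticulum, ran from 585 to 642 CPM (median 606) in air and from 641 to 783 CPM (median 740.0) in silica, a rise of 20.1% with slight overlap (log2 fold change 0.26 ± 0.045, adjusted p = 0.00122). Sdf2l1, a partner of that chaperone, had 0.43 ± 0.086 (adjusted p = 0.00412) and Dnajc3, a co-chaperone, 0.21 ± 0.040 (adjusted p = 0.00224). Heat shock proteins went both ways. The mitochondrial chaperone genes Hspa9 and Hspd1 rose (0.21 ± 0.043 and 0.19 ± 0.044), whereas the small heat shock genes Cryab and Hspb1 fell (-0.46 ± 0.060 and -0.26 ± 0.047). The remaining 14 of 18 heat shock genes did not pass, and rises and falls were 11.1% each, beside 8.39% and 5.72% over all genes. In the proteasome list 3 of 31 rose, among them Psme2, an activator subunit that interferon induces (0.24 ± 0.051 (adjusted p = 0.0059)), a share of 9.68% close to the 8.39% over all genes.

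Among 235 solute carriers 42 rose (17.9%) and 16 fell (6.81%), 34 and 12 of them without any 1 library. Slc16a6, a monocarboxylate carrier, ran from 14.5 to 18.0 CPM (median 16.9) in air and from 28.6 to 40.9 CPM (median 36.0) in silica (log2 fold change 1.08 ± 0.085, adjusted p = 2.24e-06). Its relative Slc16a11 ran from 38.7 to 51.4 CPM (median 42.9) in air and from 72.4 to 91.2 CPM (median 82.5) in silica (log2 fold change 0.89 ± 0.070, adjusted p = 2.24e-06). Neither overlapped. Slc25a22, whose unsteady call is described above, had the largest fall that the naming rule took from the family. Next came Slc39a2, a zinc importer (from 27.6 to 46.1 CPM (median 34.2) in air and from 17.0 to 25.6 CPM (median 20.8) in silica; log2 fold change -0.76 ± 0.12, adjusted p = 7.90e-04). Slc7a10, an alanine and serine carrier, and Slc24a3, a sodium, potassium and calcium exchanger, fell by small amounts without overlap (-0.25 ± 0.040 and -0.28 ± 0.047).

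Metal handling genes rose in 10 of 18 cases (55.6%) and fell in 1 (5.56%), beside 8.39% and 5.72% over all genes. Mt2A, a metallothionein that binds zinc and copper, ran from 1.33 to 3.20 CPM (median 2.43) in air and from 5.65 to 9.26 CPM (median 7.59) in silica, a 3.19-fold rise at low counts (log2 fold change 1.67 ± 0.19, adjusted p = 4.61e-05). Slc11a2, the iron importer DMT1, ran from 42.5 to 49.7 CPM (median 46.4) in air and from 65.4 to 79.7 CPM (median 74.4) in silica (log2 fold change 0.67 ± 0.051, adjusted p = 1.94e-06). Tfrc, the transferrin receptor, ran from 31.0 to 38.4 CPM (median 36.5) in air and from 48.7 to 61.0 CPM (median 54.1) in silica (log2 fold change 0.60 ± 0.066, adjusted p = 3.24e-05). Cp, the copper-carrying ferroxidase ceruloplasmin, ran from 152 to 177 CPM (median 166) in air and from 218 to 263 CPM (median 236) in silica (log2 fold change 0.51 ± 0.049, adjusted p = 1.12e-05). All 4 were higher in every silica library than in any air library. Fth1, the ferritin heavy chain that stores iron, was the fall, 12.3% lower (log2 fold change -0.19 ± 0.040, adjusted p = 0.0057). The ferritin light chain Ftl1 (-0.20 ± 0.063, adjusted p = 0.0533) and the iron exporter Slc40a1 (-0.038 ± 0.061, adjusted p = 0.748) did not pass. Both were chosen after their values were seen. So 2 genes of iron import rose, while of the ferritin chains only the heavy chain was a called fall. The neutrophil and alveolar macrophage sums given above moved with these rises, and their part in them was not tested.

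In airway and alveolar fluid transport 8 of 24 genes rose (33.3%) and 2 fell (8.33%), beside 8.39% and 5.72% over all genes. Slc26a4, pendrin, which exchanges chloride for bicarbonate and thiocyanate at the airway surface, ran from 5.61 to 20.4 CPM (median 9.72) in air and from 40.1 to 66.5 CPM (median 61.2) in silica, a 5.42-fold rise (log2 fold change 2.44 ± 0.24, adjusted p = 1.37e-05). Cftr, the chloride channel of cystic fibrosis, ran from 10.6 to 16.9 CPM (median 15.3) in air and from 18.7 to 28.1 CPM (median 22.5) in silica (log2 fold change 0.62 ± 0.11, adjusted p = 0.00202). Slc4a4, a basolateral sodium bicarbonate carrier, ran from 32.7 to 40.2 CPM (median 34.7) in air and from 42.0 to 58.6 CPM (median 50.6) in silica (log2 fold change 0.48 ± 0.075, adjusted p = 6.19e-04). Silica lay above air in every library for these 3 anion carriers. Water channels went both ways. Aqp3 rose at low counts with overlap, from a mean of 2.48 to 4.42 CPM (log2 fold change 0.84 ± 0.22, adjusted p = 0.0195). Aqp4 did not pass (0.021 ± 0.072, adjusted p = 0.893), both genes chosen after their values were seen. Aqp1 of capillary endothelium was 15.0% lower (log2 fold change -0.23 ± 0.039, adjusted p = 0.00101) and Aqp5 of type 1 cells 11.6% lower (log2 fold change -0.18 ± 0.048, adjusted p = 0.0227). Endothelial and type 1 marker sums moved with Aqp1 and Aqp5, Aqp5 being itself on the type 1 list, and their part was not tested. The Aqp5 call was lost without air 42, silica 46 or silica 48 (adjusted p from 0.0501 to 0.0541).

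Ion channels and ABC carriers were called in both directions. Of 53 potassium channel genes 3 rose (5.66%) and 5 fell (9.43%), and of 78 other channel genes 5 rose and 5 fell (6.41% each), beside 8.39% and 5.72% over all genes. Kcnt2, a sodium-activated potassium channel, and Kcne2, an accessory subunit, rose with overlap (0.90 ± 0.22 and 0.28 ± 0.059). Trpm6, a magnesium channel, had 0.41 ± 0.067 (adjusted p = 8.93e-04) and Clic1, a chloride channel protein, 0.24 ± 0.049 (adjusted p = 0.00375). P2rx1, an ATP-gated channel of platelets and smooth muscle, fell (from 28.7 to 40.6 CPM (median 33.8) in air and from 23.1 to 27.8 CPM (median 23.8) in silica; log2 fold change -0.48 ± 0.076, adjusted p = 6.89e-04). Among 35 ABC genes 2 rose (5.71%) and 4 fell (11.4%). Abca1, which exports cholesterol to lipoproteins, ran from 100.3 to 146 CPM (median 126) in air and from 80.6 to 96.0 CPM (median 86.2) in silica, 30.2% lower without overlap (log2 fold change -0.52 ± 0.086, adjusted p = 9.72e-04). Abcd2, a peroxisomal fatty acid carrier, had -0.76 ± 0.16 (adjusted p = 0.00435), and Abce1, a ribosome recycling factor of the family, 0.15 ± 0.033 (adjusted p = 0.00629).

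**Figure D4:**
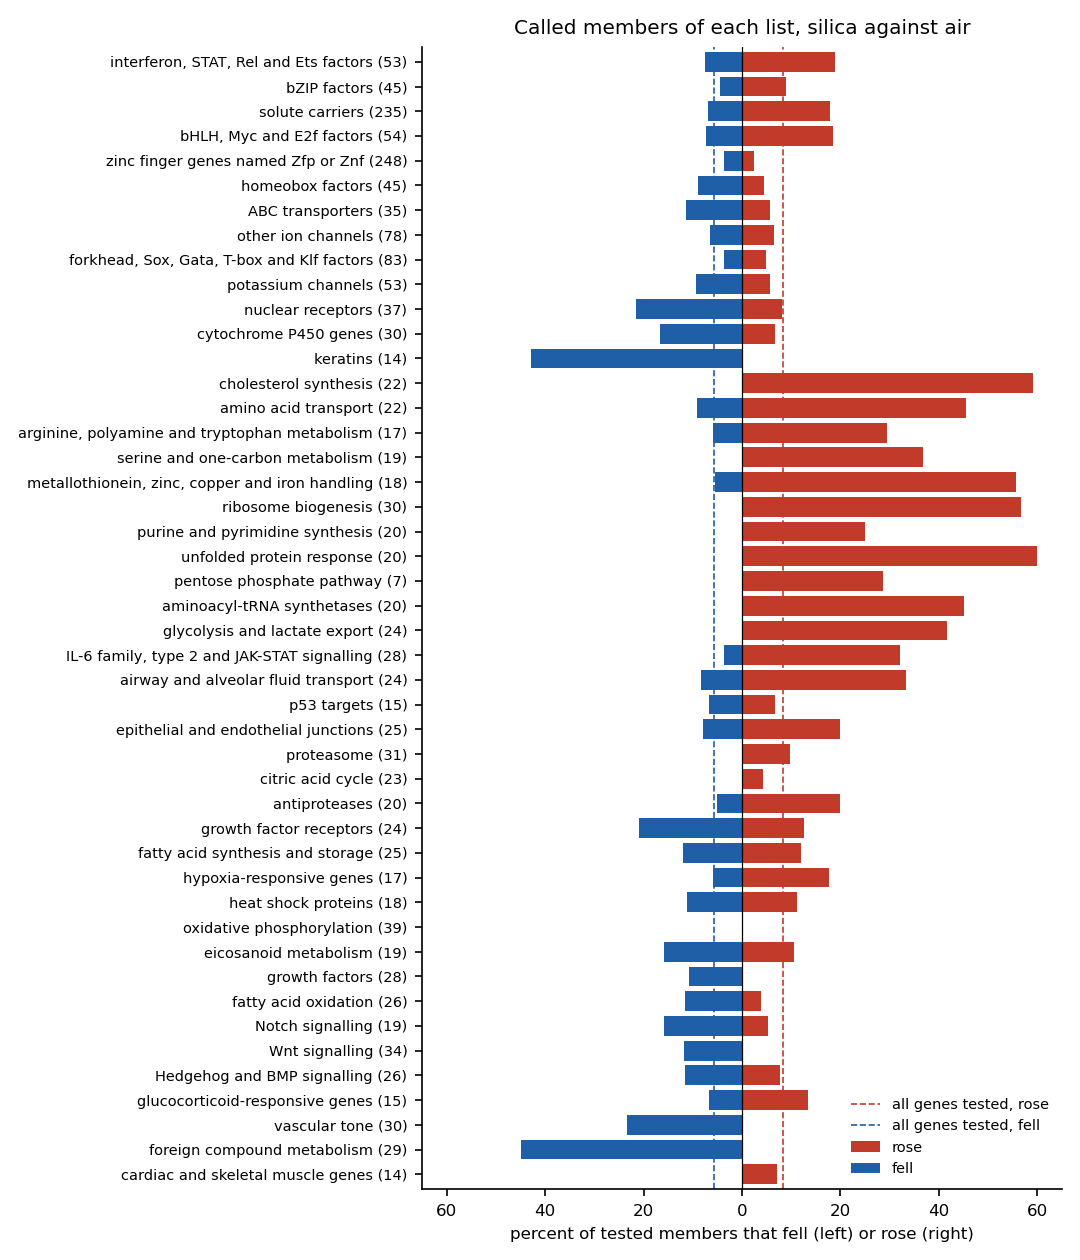
Percent of tested members that rose (red, right) or fell (blue, left) in each of 46 lists (y, number tested in brackets), the 13 families found by name pattern above and the 33 pathway lists below, each ordered by median log2 fold change. Dashed lines mark the shares over all genes tested, 8.39% up and 5.72% down. Unfolded protein response, cholesterol synthesis, ribosome biogenesis and metal handling reach past 50% up, and foreign compound metabolism and keratins past 40% down.

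Transcription factors were sorted by family. In the bHLH, Myc and E2f family 10 of 54 rose (18.5%) and 4 fell (7.41%), beside 8.39% and 5.72% over all genes. E2f7, a cell cycle repressor, ran from 0.578 to 1.17 CPM (median 0.786) in air and from 1.461 to 2.81 CPM (median 2.36) in silica (log2 fold change 1.476 ± 0.20, adjusted p = 1.85e-04), and Mybl2, which drives genes of mitosis, ran from 1.17 to 2.97 CPM (median 1.84) in air and from 3.76 to 5.80 CPM (median 5.34) in silica (log2 fold change 1.373 ± 0.18, adjusted p = 1.76e-04). Foxm1, another cell cycle factor, had 0.68 ± 0.10 (adjusted p = 3.26e-04). The forkhead, Sox, Gata, T-box and Klf genes held 4 rises (4.82%) and 3 falls (3.61%) in 83, under the 8.39% and 5.72% over all genes. Foxq1, an epithelial forkhead factor, had 0.56 ± 0.087 (adjusted p = 6.60e-04) and Egr2, a zinc finger factor of immune cells, 0.72 ± 0.16 (adjusted p = 0.00731). Zinc finger genes named Zfp or Znf rose in 6 and fell in 9 of 248 cases, under the background in both directions (2.42% and 3.63%).

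Among the interferon, STAT, Rel and Ets factors 10 of 53 rose (18.9%) and 4 fell (7.55%), beside 8.39% and 5.72% over all genes. Elf3, an epithelial Ets factor, ran from 29.4 to 36.0 CPM (median 31.9) in air and from 48.2 to 59.0 CPM (median 54.9) in silica (log2 fold change 0.75 ± 0.059, adjusted p = 2.28e-06). Bcl3, an IkB family protein that acts in the nucleus, ran from 10.1 to 14.5 CPM (median 13.1) in air and from 20.04 to 23.8 CPM (median 21.4) in silica (log2 fold change 0.78 ± 0.088, adjusted p = 4.26e-05). Stat3, the factor downstream of interleukin-6 family receptors, rose by only 13.8% (from 249 to 263 CPM (median 259) in air and from 283 to 301 CPM (median 294) in silica; log2 fold change 0.19 ± 0.026, adjusted p = 2.94e-04). All 3 were free of overlap. Spic, the factor of iron-recycling macrophages, fell (from 5.80 to 9.01 CPM (median 7.12) in air and from 3.26 to 5.83 CPM (median 5.06) in silica; log2 fold change -0.63 ± 0.16, adjusted p = 0.016). Among 45 bZIP genes 4 rose (8.89%) and 2 fell (4.44%), shares close to the 8.39% and 5.72% over all genes. Batf, a leukocyte AP-1 partner (0.84 ± 0.086 (adjusted p = 1.86e-05)), and Fosl2, an AP-1 subunit (0.37 ± 0.082 (adjusted p = 0.00729)), were among the rises. Maf, a macrophage and lymphocyte factor, fell by 11.7%, a call lost without air 38, 41 or 42 or silica 43, 44 or 48 (adjusted p from 0.0519 to 0.0597).

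Nuclear receptors fell more often than they rose, 8 (21.6%) against 3 (8.11%) of 37, beside 5.72% and 8.39% over all genes. Of these falls and rises, 4 and 3 kept the call without any 1 library. Thra, a thyroid hormone receptor, ran from 141 to 163 CPM (median 156) in air and from 125 to 135 CPM (median 129.9) in silica (log2 fold change -0.24 ± 0.036, adjusted p = 3.85e-04). Rarb, a retinoic acid receptor, and Nr3c2, the mineralocorticoid receptor, were 16.4% and 16.2% lower. All 3 had silica below air in every library. Pparg, the lipid-sensing receptor of alveolar macrophages and adipocytes, had -0.43 ± 0.12 (adjusted p = 0.0263) with overlap, and adjusted p from 0.0532 to 0.0611 without air 37 or 38 or silica 43, 47 or 48. Nr4a3, an immediate-early receptor, rose with overlap (0.77 ± 0.17 (adjusted p = 0.00749)).

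The remaining nuclear receptor rises were clock genes. Nr1d1, the REV-ERB alpha repressor, ran from 9.66 to 44.7 CPM (median 19.5) in air and from 51.1 to 110.1 CPM (median 56.4) in silica (log2 fold change 1.71 ± 0.32, adjusted p = 0.00225), and Nr1d2 ran from 34.6 to 63.7 CPM (median 46.1) in air and from 72.3 to 108 CPM (median 83.0) in silica (log2 fold change 0.85 ± 0.13, adjusted p = 4.81e-04). Dbp, a clock output factor, rose by 0.96 ± 0.20. Arntl, which REV-ERB represses, was 27.9% lower (from 60.5 to 71.0 CPM (median 64.6) in air and from 39.5 to 53.5 CPM (median 46.4) in silica; log2 fold change -0.47 ± 0.067, adjusted p = 3.28e-04), and the clock repressor Cry1 38.6% lower (log2 fold change -0.70 ± 0.11, adjusted p = 7.97e-04). Groups did not overlap for any of the 5. The labels give no time of killing, so treatment and time of day cannot be told apart for these genes.

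Homeobox factors rose in 2 (4.44%) and fell in 4 (8.89%) of 45 cases, beside 8.39% and 5.72% over all genes. Nkx2-1, the factor that keeps lung epithelial identity, rose by 17.9% (from 175 to 198 CPM (median 187) in air and from 208 to 233 CPM (median 220.0) in silica; log2 fold change 0.24 ± 0.039, adjusted p = 9.11e-04). Its low-level relative Nkx2-8 rose with overlap (1.01 ± 0.25 (adjusted p = 0.0145)). Hopx, a marker of type 1 cells, was 17.4% lower (from 518 to 618 CPM (median 538) in air and from 436 to 497 CPM (median 446) in silica; log2 fold change -0.28 ± 0.045, adjusted p = 9.11e-04), together with the type 1 marker sum that contains it.

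Many genes of foreign compound metabolism fell. Of 29 tested members 13 fell and none rose, 28 values were below 0, the list median was -0.23, and 10 of the 13 kept the call without any 1 library. Fmo2, the main flavin monooxygenase of lung, ran from 1127 to 1365 CPM (median 1236) in air and from 762 to 893 CPM (median 816) in silica, 33.7% lower (log2 fold change -0.59 ± 0.057, adjusted p = 1.12e-05). Cyp4b1, a lung cytochrome P450 that activates protoxins, ran from 625 to 728 CPM (median 688) in air and from 424 to 501 CPM (median 476) in silica, 31.1% lower (log2 fold change -0.54 ± 0.049, adjusted p = 6.97e-06). Ces1d, a carboxylesterase that also acts on surfactant lipid, ran from 822 to 951 CPM (median 919.7) in air and from 689 to 757 CPM (median 717) in silica (log2 fold change -0.34 ± 0.036, adjusted p = 2.72e-05). No silica library reached the air range for any of the 3. Airway epithelial, type 1 and endothelial marker sums were 0.773, 0.895 and 0.908 of their air means, against 0.663-fold for Fmo2 and 0.689-fold for Cyp4b1, and their part in these falls was not tested. In the whole P450 family 5 of 30 fell (16.7%) and 2 rose (6.67%), beside 5.72% and 8.39% over all genes. Cyp2d4 and the sterol hydroxylase gene Cyp27a1 were 20.5% and 14.6% lower. Cyp7b1, an oxysterol hydroxylase, and Cyp2c23, which makes epoxides from arachidonic acid, were 1.421-fold and 1.36-fold higher.

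Eicosanoid genes fell and rose. Alox15, the lipoxygenase of eosinophils and macrophages that makes precursors of lipoxins, ran from 13.5 to 18.2 CPM (median 15.2) in air and from 6.15 to 7.94 CPM (median 7.31) in silica, a fall of 53.8% without overlap (log2 fold change -1.11 ± 0.089, adjusted p = 2.33e-06). Hpgd, which inactivates prostaglandins, had -0.31 ± 0.045 (adjusted p = 3.70e-04), and Lta4h, which makes leukotriene B4, -0.30 ± 0.067 (adjusted p = 0.00735). Alox5ap, which presents arachidonic acid to 5-lipoxygenase, rose (from 24.5 to 30.9 CPM (median 28.6) in air and from 33.2 to 37.1 CPM (median 34.8) in silica; log2 fold change 0.30 ± 0.052, adjusted p = 0.0015). Pla2g2d, a secreted phospholipase of resident immune cells, ran from 167 to 222 CPM (median 197) in air and from 79.6 to 145 CPM (median 98.1) in silica (log2 fold change -0.88 ± 0.13, adjusted p = 4.32e-04), with every silica library below every air library.

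Several of the largest falls were of genes with narrow known expression. Dlk1, a Notch-related surface protein of progenitor and mesenchymal cells, ran from 7.42 to 26.6 CPM (median 13.9) in air and from 2.73 to 3.68 CPM (median 3.16) in silica (log2 fold change -2.26 ± 0.28, adjusted p = 9.38e-05). Tchh, a structural protein known from hair follicles, ran from 13.5 to 21.6 CPM (median 18.3) in air and from 5.60 to 11.6 CPM (median 7.02) in silica (log2 fold change -1.24 ± 0.17, adjusted p = 2.13e-04). Tnfrsf8, the CD30 receptor of activated lymphocytes, ran from 10.6 to 17.3 CPM (median 13.8) in air and from 4.01 to 8.18 CPM (median 5.46) in silica (log2 fold change -1.21 ± 0.17, adjusted p = 3.51e-04). Silica was below air in every library for all 3. Arsi, a sulfatase gene, had -1.11 ± 0.13 (adjusted p = 5.62e-05). Cxcr1, a chemokine receptor known from neutrophils, fell (from 15.5 to 32.0 CPM (median 22.4) in air and from 6.98 to 14.7 CPM (median 10.6) in silica; log2 fold change -1.04 ± 0.19, adjusted p = 0.00205) while the summed neutrophil markers rose. Of 14 keratins 6 fell and none rose by edgeR or DESeq2 (1 higher at an unadjusted p under 0.05). Krt79 had the largest fall of these (from 26.8 to 40.3 CPM (median 31.5) in air and from 11.1 to 21.2 CPM (median 16.5) in silica; log2 fold change -0.96 ± 0.13, adjusted p = 1.59e-04), and the simple epithelial keratins Krt19 and Krt8 were 24.0% and 15.8% lower.

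Developmental signalling genes were called in small numbers, more often down than up. Of 34 Wnt genes 4 fell and none rose by edgeR (1 rose with DESeq2, and 3 had an unadjusted p under 0.05), led by the receptor Fzd1 (-0.21 ± 0.041 (adjusted p = 0.00331)) and the inhibitor Nkd1 (-0.15 ± 0.036 (adjusted p = 0.0101)). Notch genes fell in 3 and rose in 1 of 19 cases, and Hedgehog and BMP genes fell in 3 and rose in 2 of 26. The shares that fell were 11.8% for Wnt, 15.8% for Notch and 11.5% for Hedgehog and BMP, beside 5.72% over all genes. Among 28 growth factors 3 fell and none rose by edgeR (1 rose with DESeq2, and 2 had an unadjusted p under 0.05), with Nrg1, a ligand of ERBB3 and ERBB4, 28.6% lower without overlap (log2 fold change -0.49 ± 0.11, adjusted p = 0.00656). Growth factor receptors moved in both directions, 3 up (12.5%) and 5 down (20.8%) of 24, beside 8.39% and 5.72% over all genes. Met, the receptor of hepatocyte growth factor, ran from 104 to 137 CPM (median 120.4) in air and from 156 to 201 CPM (median 184) in silica (log2 fold change 0.57 ± 0.069, adjusted p = 8.47e-05), and Fgfr2 ran from 154 to 194 CPM (median 167) in air and from 195 to 228 CPM (median 218) in silica (log2 fold change 0.32 ± 0.060, adjusted p = 0.0027). Both epithelial receptors were higher in every silica library. Their relatives Fgfr1, Fgfr3 and Fgfr4 were 14.1%, 10.9% and 17.3% lower, also without overlap.

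In the interleukin-6 and JAK-STAT list 9 of 28 rose (32.1%) and 1 fell (3.57%), beside 8.39% and 5.72% over all genes. Osm, the cytokine oncostatin M of macrophages and neutrophils, chosen after its value was seen, ran from 1.81 to 3.87 CPM (median 2.70) in air and from 4.85 to 12.9 CPM (median 5.94) in silica (log2 fold change 1.45 ± 0.25, adjusted p = 0.00143). Its receptor chain Osmr ran from 24.1 to 31.4 CPM (median 27.4) in air and from 36.2 to 46.7 CPM (median 43.0) in silica (log2 fold change 0.61 ± 0.073, adjusted p = 7.35e-05). Neither overlapped. Pim1, a kinase gene that STAT factors induce, had 0.64 ± 0.11 (adjusted p = 0.00116), and Il1rl1, the interleukin-33 receptor, 0.43 ± 0.065 (adjusted p = 5.47e-04). Of 20 antiprotease genes 4 rose and 1 fell. Here the share that rose was above 8.39%, and the share that fell was close to 5.72%. The acute-phase serpin Serpina3n had 1.07 ± 0.17 (adjusted p = 8.51e-04) and the complement inhibitor Serping1 0.18 ± 0.039 (adjusted p = 0.00631), whereas Timp2, an inhibitor of metalloproteases, was 7.87% lower.

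Vascular tone genes fell in 7 of 30 cases and rose in none by edgeR (median -0.12, 2 higher at an unadjusted p under 0.05, none with DESeq2), 4 of the 7 without any 1 library. Ednrb, an endothelin receptor, ran from 363 to 393 CPM (median 377) in air and from 316 to 352 CPM (median 329) in silica (log2 fold change -0.20 ± 0.031, adjusted p = 7.58e-04). Ramp2, the adrenomedullin receptor partner, was 16.4% lower (log2 fold change -0.26 ± 0.047, adjusted p = 0.00202). The endothelial marker sum, 0.908 of its air mean, moved with them, Ednrb being itself on that list. The part of the sum was not tested. Of 25 junction genes 5 rose and 2 fell. The share that rose was above the 8.39% over all genes, and the share that fell was near the 5.72% over all genes. Tjp3, a tight junction scaffold, ran from 19.6 to 25.2 CPM (median 23.9) in air and from 34.9 to 46.8 CPM (median 39.4) in silica (log2 fold change 0.79 ± 0.079, adjusted p = 1.59e-05), and Gja1, the gap junction protein connexin 43, ran from 75.8 to 90.1 CPM (median 82.5) in air and from 119 to 153 CPM (median 127) in silica (log2 fold change 0.67 ± 0.067, adjusted p = 1.59e-05). Cldn3, an epithelial claudin, rose by 0.23 ± 0.053, while Cldn5, the endothelial claudin, was 21.7% and F11r 7.57% lower. Hypoxia genes did not move as a block. In that list 3 of 17 rose (17.6%) and 1 fell (5.88%), beside 8.39% and 5.72% over all genes. The list median was -0.010, 9 values were below 0, and 2 of the 3 rises kept the call without any 1 library. Hif1a had 0.17 ± 0.035 (adjusted p = 0.00573), and Bnip3l, a mitophagy receptor, fell (-0.13 ± 0.027 (adjusted p = 0.00549)). Among 15 p53 targets 1 rose, the nuclease gene Aen (0.29 ± 0.063 (adjusted p = 0.00679)), and 1 fell. These are 6.67% each, beside 8.39% and 5.72% over all genes.

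The 30 genes with the largest changes were set beside lung at 6 months, where 5 air and 6 silica libraries of other animals give a separate contrast. These genes were picked by their change in the same 1 day libraries that enter the time difference. Smaller changes at 6 months are therefore partly built into the choice. Over all genes 217 of 15786 differed between times at an adjusted p under 0.05. The fold change was higher at 1 day in 40 of them (0.253%) and lower in 177 (1.12%). All 14 rises with an SE under 1 were also above 0 at 6 months. Several were smaller there: Cxcl2 had 2.71 ± 0.23 at 1 day and 0.80 ± 0.24 at 6 months (difference 1.90 ± 0.33, adjusted p = 0.00388), Cxcl1 2.58 ± 0.20 at 1 day and 1.03 ± 0.21 at 6 months (difference 1.55 ± 0.29, adjusted p = 0.00621) and Lcn2 3.04 ± 0.17 at 1 day and 2.004 ± 0.17 at 6 months (difference 1.03 ± 0.24, adjusted p = 0.0241). C2cd4b had 2.71 ± 0.25 at 1 day and 1.30 ± 0.25 at 6 months (difference 1.408 ± 0.35, adjusted p = 0.0385). For Slc26a4, by contrast, the values were 2.43 ± 0.29 at 1 day and 3.10 ± 0.32 at 6 months, and the difference did not pass (difference -0.67 ± 0.43, adjusted p = 0.529).

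Of the 13 falls with an SE under 1, 9 were above 0 at 6 months and 8 differed between times. Fabp4 reversed, with -0.83 ± 0.19 at 1 day and 1.27 ± 0.20 at 6 months (difference -2.09 ± 0.27, adjusted p = 2.86e-04), as did Tchh (-1.24 ± 0.13 at 1 day and 0.73 ± 0.13 at 6 months; difference -1.97 ± 0.19, adjusted p = 4.40e-06) and Krt79 (-0.97 ± 0.14 at 1 day and 0.59 ± 0.14 at 6 months; difference -1.55 ± 0.19, adjusted p = 1.68e-04), and all 3 passed the threshold in opposite directions. The Fabp4, Tchh and Krt79 values at 6 months had adjusted p of 8.17e-05, 0.000365 and 0.00412. Alox15 was lower at both times, -1.12 ± 0.10 at 1 day and -0.37 ± 0.10 at 6 months (difference -0.75 ± 0.14, adjusted p = 0.00621). Pla2g2d, Slc39a2, Tnfrsf8 and Cxcr1 fell at 1 day and were above 0 at 6 months without passing there (difference -0.96 ± 0.19, adjusted p = 0.00831 for Pla2g2d). Dlk1 gave -2.27 ± 0.36 at 1 day and -2.50 ± 0.35 at 6 months, values whose difference did not pass (difference 0.22 ± 0.50, adjusted p = 0.889).

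**Figure D5:**
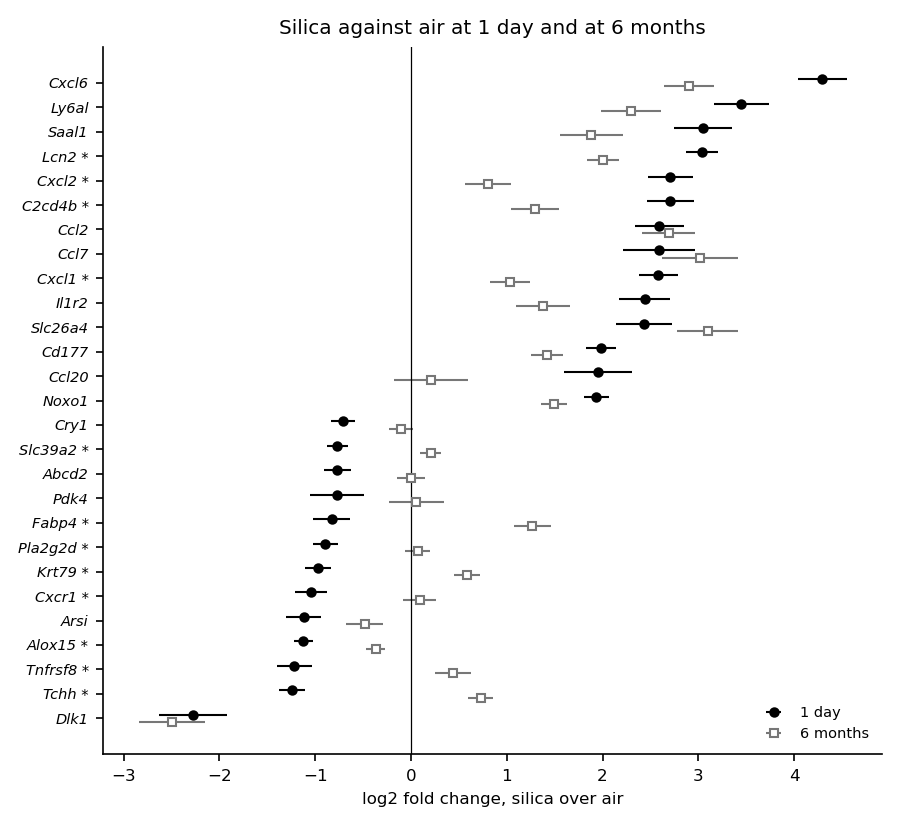
Log2 fold change of silica over air with SE (x) at 1 day (filled circles) and 6 months (open squares) for 27 of the 30 genes with the largest changes (y), 3 genes with an SE above 1 left out. An asterisk marks the 12 genes whose difference between times passed the threshold, all genes drawn having been picked by their change at 1 day. All 14 rises stay right of 0 at 6 months, while 9 of the 13 falls lie right of 0 there, of which Fabp4, Tchh and Krt79 passed the threshold at both times.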

How the data were processed

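RNA was measured in 12 lung libraries at 1 day (6 air, 6 silica), with 11 at 6 months for the time test. The authors deposited estimated counts per gene, not normalized and partly fractional, and these were rounded to whole numbers here. Per the submitters' processing notes the tools were bcl2fastq 2.19, cutadapt 3.4, Trim Galore 0.6.7, STAR 2.6.1d and Salmon 1.10.1 on Rnor_6.0, with roles not given. Such counts divide reads among similar genes, which leaves gene families and names on several lines (235 of the tested genes) uncertain. All columns matched samples by title, with 0 left over.

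The test was edgeR's quasi-likelihood test (version 4.0.16, R 4.3.3) after TMM scaling, on genes that filterByExpr kept at a minimum count of 10. P-values were adjusted by Benjamini-Hochberg over all genes tested. A changed gene here has an adjusted p under 0.05. SE is the absolute log2 fold change divided by the square root of F, and CPM uses TMM-scaled totals. The time test was an interaction over 4 lung groups. On simulated counts with the real means and library sizes, 32 of 50 genes raised 1.5-fold and 46 of 50 raised 2-fold were called. Far fewer genes were changed in the simulation than were called in the data, which makes the adjusted threshold stricter there. These shares therefore do not measure the power of the real fit. Library values were compared by exact permutation over all 924 assignments (two-sided, smallest possible p 0.00216). Libraries of a group differed by a chi-square per degree of freedom of 4.55 to 11.7, so none was a repeat of another. The p-values rest on the spread among animals within a group.

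The animals were taken as the labels group them. The 58 lists, their members and the tests were chosen with earlier results of these data known, and the name patterns of solute carriers and other ion channels were tightened after their matches were seen, to drop genes of other families. Genes named are the 15 largest rises and 15 largest falls with at least 5 CPM in the higher group and a symbol, and up to 3 members per list and direction with the smallest p. A few that this rule took are not reported here. Others are marked as chosen after their values were seen. In all, 7 promoter motifs were searched on both strands in 250 bases before the start: the NF-kB type shown, a sterol element type (TCACNCCAC), an ATF4 type (TGATGNAA), the clock E-box (CACGTG), an AP-1 type (TGANTCA), an antioxidant element type (TGACNNNGC) and the cell cycle element CHR (TTTGAA). Alternatives were DESeq2 1.42.0, limma-voom (limma 3.58.1), RLE and upper-quartile factors, no filter, a minimum count of 50, summed gene models, all 4 lung groups in 1 fit, a test against a 1.5-fold change, plain library totals for marker sums and each library left out.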

Additional observations from a re-analysis of the deposited data

Results flagged for a closer look

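The silica effect differed between 1 day and 6 months, by the interaction test of edgeR, for 12 of the 30 genes with the largest changes. The 30 were picked by their change at 1 day, so part of such differences comes with the choice. The difference of the log2 fold changes (1 day minus 6 months) was 1.03 for Lcn2, 1.408 for C2cd4b, 1.90 for Cxcl2 and 1.55 for Cxcl1. Among genes that fell at 1 day it was -1.97 for Tchh, -1.66 for Tnfrsf8, -0.75 for Alox15 and -1.13 for Cxcr1. It was -1.55 for Krt79, -0.96 for Pla2g2d, -2.09 for Fabp4 and -0.97 for Slc39a2.

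Single libraries stood apart from the other 5 of their group in 22 of 338 groups of values examined (6.509%), where chance gives about 1 in 20. Of these 3 were of depth or marker sums: air 42 had the highest total, 25.9 in units of 1e6 counts, where the next had 16.2, silica 43 had the lowest monocyte and interstitial macrophage sum (469 CPM) and silica 46 the highest airway epithelial sum (7344 CPM). In air 38 the highest value of its group was 42.7 CPM for Dgat2, 73.3 for Atic, 50.5 for Yars and 39.8 for Slc2a1, each still below every silica library. Air 40 was highest for Pdk4 (19.4 CPM) and Slc15a2 (43.0) and lowest for Bnip3l (249). Air 41 was highest for Nr1d1 (44.7 CPM) and lowest for Ces1d (822) and Fgfr1 (163). Air 39 was lowest for Maf (39.2 CPM) and highest for Hopx (618), and air 42 highest for Nr4a3 (4.60) and the only air library with reads of Lilra3 (0.271). In the silica group, animal 44 was highest for Cxcl1 (141 CPM), 43 for Hopx (497) and Nkd1 (244) and 48 for Dbp (18.9), and 47 was lowest for Pc (29.8).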

How the results depend on the processing

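Counts of changed genes stayed within 1.5 times of the reported ones under DESeq2, limma-voom, RLE and upper-quartile factors, no filter, a minimum count of 50, summed gene models and all 4 lung groups in 1 fit, from 1145 to 1365 rises and from 736 to 1123 falls. Tested against a 1.5-fold change, 150 genes were higher and 7 lower. With 1 library left out the counts ran from 1069 to 1271 rises and from 660 to 910 falls. Over all calls, 73.7% of rises and 64.3% of falls were kept in every fit with 1 library left out. The genes named were mostly picked for a small p or a large change in these same libraries, so keeping the call is partly built into the choice. Of 153 genes named and followed through the alternatives, 144 kept direction and side of the threshold under at most 20 alternatives each (a test against 1.5-fold not among them). With a library left out 8 lost the call, and none reversed. The exceptions stand beside their results. The time test called 217 genes, and 205 with RLE factors. No paired analysis was possible because air and silica groups hold different animals and share no animal number. Only 64 of the 877 falls reached 1.5-fold, the smallest size simulated. A count of 3 in a library is 0.116 to 0.249 CPM, so small changes of rare genes were not detectable at this depth.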
